A study of Mus musculus with 8 samples.

Results

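The 10 genes described here code for the immediate early transcription factors of the AP-1 and EGR families, for MYC and for the survival factor IER3: Fos, Fosb, Fosl2, Jun, Junb, Jund, Egr1, Atf3, Myc and Ier3. They were taken by symbol from the count table of mouse liver RNA, which lists 37583 genes. All 10 were found once, and all 10 were among the 17362 genes that passed the filter on low counts. The PR-SET7_LOBE group held 4 libraries from mice of the genotype PR-SET7_LX_ALB_CRE. In these mice the histone H4 methyltransferase PR-SET7 was inactivated in hepatocytes by a Cre recombinase named for the albumin gene. Whether other liver cells keep the gene was not tested. The labels do not explain the word LOBE. The DEN_WT group held 2 libraries from wild-type mice injected with the liver carcinogen diethylnitrosamine (DEN) at 15 days of age, with a dose labelled as 25 ml per kg and no concentration. The WT group held 2 libraries from wild-type mice with no injection named. All mice were labelled C57BL6/CBA, were 8 months old and ate a standard chow, and no group that carries Cre alone or received only a vehicle was analysed here.

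Immediate early genes are switched on within minutes of a growth factor, cytokine or stress signal, without the need for new protein, because MAP kinases activate factors that already sit on their promoters. The proteins of the Jun family pair with each other or with those of the Fos and ATF families to form AP-1, which binds DNA through a basic leucine zipper. EGR1 is a zinc finger factor induced through ERK and serum response factor, and MYC pairs with MAX to drive genes of growth and ribosome production. In mouse liver these genes are known for their burst after partial hepatectomy, and Jun and Myc for their part in tumour formation.

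Promoter sequences of RefSeq (build GRCm38.p6, another build than the mm9 of the counts) matched 8 of the 10 genes, all but Egr1 and Myc. They are shown for Atf3, the matched gene that passed the test, and for Fos and Jun, the eponymous AP-1 genes, which did not. Each line gives the 250 bases before the start site on the gene's strand, at chr1:191183334-191183583 on the minus strand for Atf3, chr12:85473640-85473889 on the plus strand for Fos and chr4:95052223-95052472 on the minus strand for Jun. Capitals mark the half-site of a cyclic AMP response element, TGACGT on either strand (written ACGTCA where it lies on the other strand), the variant TGACATCA known from the Jun promoter, or the TATA box TATAAA.
Atf3: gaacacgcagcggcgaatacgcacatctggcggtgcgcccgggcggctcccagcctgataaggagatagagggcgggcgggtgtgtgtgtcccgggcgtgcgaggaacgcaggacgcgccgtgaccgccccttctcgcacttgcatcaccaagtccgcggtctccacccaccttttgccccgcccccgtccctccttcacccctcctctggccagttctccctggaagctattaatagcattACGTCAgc
Fos: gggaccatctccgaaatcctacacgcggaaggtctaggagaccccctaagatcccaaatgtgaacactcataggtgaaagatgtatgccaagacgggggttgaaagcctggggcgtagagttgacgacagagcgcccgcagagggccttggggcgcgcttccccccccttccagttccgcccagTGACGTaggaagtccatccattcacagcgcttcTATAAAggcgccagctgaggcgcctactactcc
Jun: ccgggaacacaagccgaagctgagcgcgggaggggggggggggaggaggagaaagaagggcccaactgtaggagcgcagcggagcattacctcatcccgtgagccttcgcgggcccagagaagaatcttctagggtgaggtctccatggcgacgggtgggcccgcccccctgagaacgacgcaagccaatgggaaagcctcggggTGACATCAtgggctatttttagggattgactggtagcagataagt

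The half-site TGACGT lay 8 to 3 bases before the start site of Atf3 and 66 to 61 bases before that of Fos, and it occurred in 6.5% of the 32544 promoters of the same length. TGACATCA lay 45 to 38 bases before the start site of Jun and occurred in 2.84% of promoters, and TATAAA, which occurred in 12.3%, lay 33 to 28 bases before that of Fos. The binding motif of the EGR family, searched as GCGNGGGCG on both strands, occurred in 4.74% of promoters and in those of Fosb and Fosl2, which are shown with 10 bases on either side because Egr1 is the gene that changed most. The promoters behind this share were not matched for GC content, and whether EGR1 binds these sites was not tested. The Fosb window is at chr7:19310077-19310105 on the minus strand and the Fosl2 window at chr5:32136383-32136411 on the plus strand.
Fosb: tgacgcaagcGCGGGGGCGggtcccggag
Fosl2: ccggctgcgcGCGGGGGCGgaagggcgcg

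The AP-1 site TGANTCA, the E-box CACGTG and the CArG box of serum response factor had no match in these 8 windows, against 6.73%, 6.03% and 1.48% of all promoters. At such shares, no match in 8 windows is no result about these genes. Sites beyond the 250 bases, and the promoters of Egr1 and Myc, were not searched. The search covered both strands, and none of the matches shown overlaps another.

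The shallowest library held 7305595 counts and the deepest 16108081, so that 3 counts came to 0.411 and 0.186 CPM (counts relative to library size, here before any further scaling). Setd8, the gene of PR-SET7, was at 62.6, 57.4, 47.9 and 46.5 CPM in the PR-SET7_LOBE libraries, 40 and 42.8 CPM in DEN_WT and 51.9 and 56.0 CPM in WT, and since the deleted part is not given and the counts cover the whole gene, it does not check the genotype labels. The 8 hepatocyte markers summed to between 44157 and 158251 CPM and were thus abundant in every library. Alb led that sum. The other 7 came to 19501 to 61607 CPM in PR-SET7_LOBE, 43560 to 44294 CPM in DEN_WT and 71558 to 76630 CPM in WT. In each comparison 0 of the 8 passed the test described below. No marker of the 9 cell types considered was at 0 in all libraries. PR-SET7_LOBE replicate 1 stood apart in its base composition. Gene levels followed the GC content of transcripts there (r = 0.607 across genes, which are not independent replicates), whereas r lay between -0.289 and 0.297 in the other 7 libraries. Differences are log2 fold changes from edgeR's quasi-likelihood test with Benjamini-Hochberg adjustment over all 17362 genes, and genes with an adjusted p under 0.05 are described as risen or fallen, or as higher or lower. The labels tell samples of a group apart only by number, so that the spread behind each p-value may be partly technical. Both PR-SET7_LOBE and DEN_WT were set against the same 2 WT libraries.

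Egr1 was the member that changed most (ENSMUSG00000038418, mm9 chromosome 18, 35019477 to 35024638, plus strand). Its counts per library scaled to 34.7, 23.7, 22.4 and 9.47 CPM in PR-SET7_LOBE, 158 and 205 CPM in DEN_WT and 18.8 and 13.5 CPM in WT. Both DEN_WT libraries lay above all 6 others, and the PR-SET7_LOBE values overlapped those of WT. The means were 22.6 ± 10.3 CPM in PR-SET7_LOBE (SD, n = 4), 181 ± 33.5 CPM in DEN_WT and 16.1 ± 3.75 CPM in WT (SD, n = 2 each). Egr1 rose 11.2-fold in DEN_WT against WT (log2 fold change 3.49, SE 0.59, adjusted p = 0.00559). Per kb of transcript, not corrected for GC content, its mean was 40.4 CPM in DEN_WT against 3.59 CPM in WT. Jund had the highest DEN_WT mean of the Fos and Jun genes, 42.0 CPM per kb, but Junb led in DEN_WT replicate 1. Egr1 was 8.03-fold lower in PR-SET7_LOBE than in DEN_WT (log2 fold change -3.0, SE 0.45, adjusted p = 0.00208). Against WT its log2 fold change in PR-SET7_LOBE was 0.49 (SE 0.48, adjusted p = 0.599). The rise in DEN_WT did not pass without WT replicate 2 (adjusted p = 0.0546, the highest of 17 alternatives, with a lowest of 2.16e-08). A gene on the opposite strand, Gm17507, overlaps Egr1 by 200 bases and had 0 counts in all libraries. In whole liver, a change in the number of cells of a type and a change in the RNA per cell cannot be told apart.

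Atf3, an ATF family factor induced by stress and DNA damage that can pair with JUN, rose in DEN_WT and had a similar level in PR-SET7_LOBE, where it did not pass the test (ENSMUSG00000026628, mm9 chromosome 1, 192994175 to 193007219, minus strand). It had 10.8, 8.04, 11.4 and 3.55 CPM in PR-SET7_LOBE, 7.88 and 11.8 CPM in DEN_WT and 2.11 and 1.84 CPM in WT. All 6 libraries of PR-SET7_LOBE and DEN_WT lay above both WT libraries. Atf3 rose 4.97-fold in DEN_WT (log2 fold change 2.31, SE 0.63, adjusted p = 0.0425). In PR-SET7_LOBE the log2 fold change was 2.09 (SE 0.58) and did not pass (adjusted p = 0.151), although it did with DESeq2 (adjusted p = 0.0125) and without PR-SET7_LOBE replicate 1 (adjusted p = 0.0468), and it reached 0.612 in the least favourable of 17 alternatives. Between PR-SET7_LOBE and DEN_WT the log2 fold change was -0.22, with a 95% interval of -1.33 to 0.88 (adjusted p = 0.805). The rise in DEN_WT did not pass without DEN_WT replicate 1 (adjusted p = 0.11) or 2 (0.252), WT replicate 1 (0.173) or 2 (0.191), or PR-SET7_LOBE replicate 2 (0.0592), and the lowest adjusted p of 17 alternatives was 0.00438.

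Of the 10 genes, 2 rose and 0 fell in DEN_WT against WT, where 9.72% of all tested genes changed, 5.18% higher and 4.54% lower. In PR-SET7_LOBE against DEN_WT 1 was lower and 0 were higher, where 11.1% of all tested genes changed, 4.82% higher and 6.26% lower. The 9 genes other than Egr1 had log2 fold changes from -1.09 (Fos) to 1.32 (Myc) in this comparison, with adjusted p from 0.297 (Jun) to 0.805 (Atf3). In PR-SET7_LOBE against WT 0 passed edgeR's test, where 0.248% of all tested genes changed, 0.15% higher and 0.0979% lower. There 1 (Atf3) had an unadjusted p under 0.05, and 1 (Atf3) was called by DESeq2, which called 927 of all 17362 tested genes. The share of all tested genes with an unadjusted p under 0.05 was not taken, here or for the lists below. The median log2 fold change of the 10 was 0.13 in PR-SET7_LOBE against WT and -0.47 in DEN_WT against WT, beside 0.11 and 0.06 over all tested genes. Groups did not overlap for 1 of the 10 in PR-SET7_LOBE against WT, for 4 of the 10 in DEN_WT against WT and for 1 of the 10 in PR-SET7_LOBE against DEN_WT, against 22.1%, 71.2% and 40.5% of all tested genes, so these counts are no result about the 10 genes. The 7 cholangiocyte markers summed to 117 to 293 CPM in PR-SET7_LOBE, 429.7 to 733 CPM in DEN_WT and 37.4 to 67.3 CPM in WT, and none was at 0 in any group. Spp1, the only one of the 7 to pass the test in PR-SET7_LOBE or DEN_WT against WT, made up much of the sum, and the other 6 summed to 38.7 to 117 CPM in PR-SET7_LOBE, 47.1 to 54 CPM in DEN_WT and 28.4 to 51.8 CPM in WT. The 5 B cell markers summed to 19.5 to 32.4 CPM in PR-SET7_LOBE, 1.94 to 5.05 CPM in DEN_WT and 27.5 to 33.5 CPM in WT, of which Cd22, which fell in DEN_WT against WT, made up most in WT. The other 4 summed to 5.92 to 8.84 CPM in PR-SET7_LOBE, 0.972 to 2.74 CPM in DEN_WT and 1.15 to 2.49 CPM in WT. The 7 neutrophil markers summed to 10.1 to 38.4 CPM in PR-SET7_LOBE, 2.65 to 6.02 CPM in DEN_WT and 16 to 19.1 CPM in WT, with Ly6g and Ngp at 0 in WT. Cxcr2, which fell in DEN_WT against WT, led that sum, and the other 6 came to 3.94 to 20.9 CPM in PR-SET7_LOBE, 1.24 to 3.72 CPM in DEN_WT and 0.184 to 4.02 CPM in WT. T and NK cell markers summed to 15.6 to 22.5 CPM in PR-SET7_LOBE, 5.83 to 6.2 in DEN_WT and 18.9 to 19.3 in WT. Cd3d, which fell in DEN_WT against WT, led that sum. The other 6 came to 8.73 to 11.5, 5.56 to 5.84 and 4.98 to 5.72 CPM in the same order. Stellate cell markers summed to 119 to 224 CPM in PR-SET7_LOBE, 152 to 258 CPM in DEN_WT and 80.4 to 107 CPM in WT. Without Col3a1, which led that sum, they came to 94.9 to 168, 108 to 142 and 64.9 to 84.8 CPM in the same order. Erythroid markers came to 302 to 1219 CPM in PR-SET7_LOBE, 762 to 1017 CPM in DEN_WT and 1741 to 2672 CPM in WT. In each comparison 0 of the 7 stellate and 0 of the 5 erythroid markers passed the test. The part of these cell types in the levels of Egr1 and Atf3 was not tested.

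**Figure D1:**
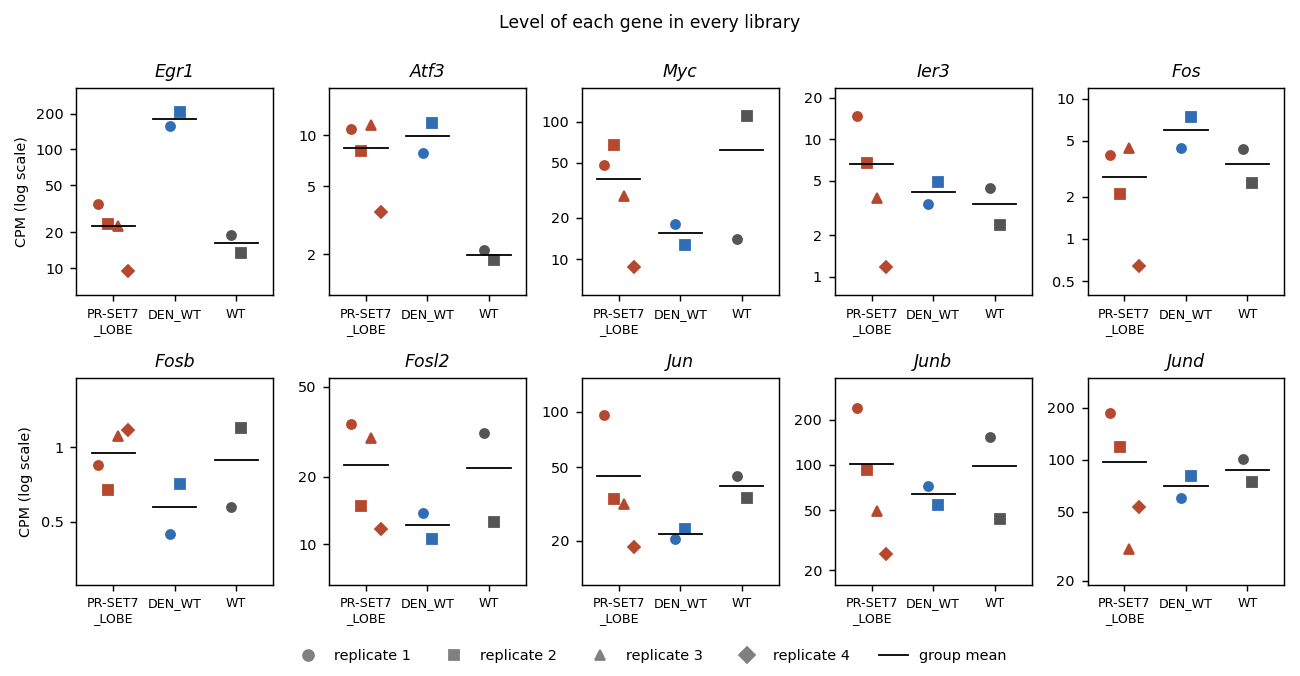
Level of each of the 10 genes in CPM (log axis, a range of its own per panel) in the 4 PR-SET7_LOBE, 2 DEN_WT and 2 WT libraries. Symbols are single libraries and bars are group means; Egr1 stands at 158 and 205 CPM in DEN_WT and at 34.7 CPM or less elsewhere, whereas most other genes spread more within PR-SET7_LOBE than between groups.

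**Figure D2:**
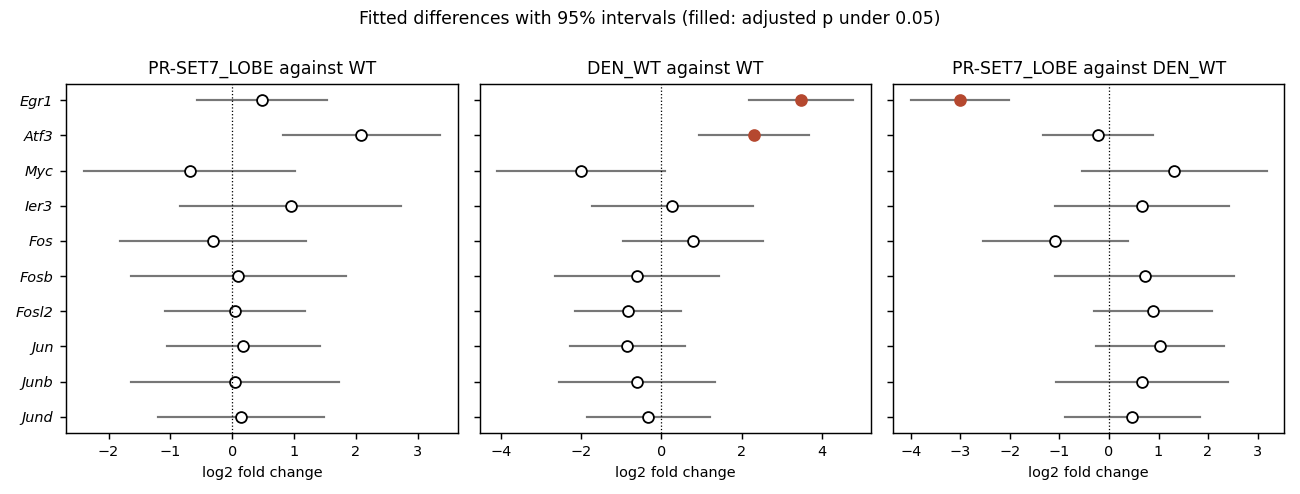
Fitted log2 fold change of each gene in the 3 comparisons, with the 95% interval of the quasi-likelihood fit as a bar and filled points at an adjusted p under 0.05. Filled are Egr1 and Atf3 in DEN_WT against WT and Egr1 in PR-SET7_LOBE against DEN_WT.

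Myc varied more between the WT libraries than between the group means (ENSMUSG00000022346, mm9 chromosome 15, 61816946 to 61821929, plus strand). It had 48.2, 67.4, 28.8 and 8.75 CPM in PR-SET7_LOBE, 18.0 and 12.7 CPM in DEN_WT and 14.0 and 109.6 CPM in WT. WT replicate 2 was the highest of the 8 libraries, 7.85 times WT replicate 1, where the median gene differed 1.42 times between these libraries. The log2 fold change was -2.01 in DEN_WT against WT (SE 0.95, adjusted p = 0.19) and -0.69 in PR-SET7_LOBE against WT (SE 0.77, adjusted p = 0.649). Both rest on WT replicate 2: without it they were 0.24 (adjusted p = 0.904) and 1.53 (adjusted p = 0.623). Against DEN_WT, the PR-SET7_LOBE libraries differed by 1.32 (95% interval -0.55 to 3.18, adjusted p = 0.355).

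A list of genes of the MYC network gave no edgeR call. Of its 12 genes, which include the MYC partner Max, antagonists of the MXD family and the related Mycn and Mycl1, 0 passed edgeR's test in PR-SET7_LOBE against WT, DEN_WT against WT or PR-SET7_LOBE against DEN_WT. An unadjusted p under 0.05 was found for 4, 0 and 1 of them in these comparisons, and DESeq2 called 0, 0 and 1 (Mlx). Over all 17362 tested genes, edgeR called 0.248%, 9.72% and 11.1%, and DESeq2 called 927, 3144 and 2842 genes. Max was at 27.7, 19.0, 20.1 and 13.8 CPM in PR-SET7_LOBE, 23.1 and 21.2 CPM in DEN_WT and 21.6 and 20.8 CPM in WT. Their median log2 fold change was -0.35 in PR-SET7_LOBE against WT and 0.00 in DEN_WT against WT.

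Of 20 MYC target genes, mostly of ribosome production and nucleotide or polyamine synthesis, 1 rose and 1 fell in DEN_WT against WT, a share near the 9.72% of all tested genes. In PR-SET7_LOBE against WT 0 passed edgeR's test, where 5 had an unadjusted p under 0.05. DESeq2 called 2 of the 20 there, beside 927 of all 17362 tested genes. Nop58, a core protein of small nucleolar ribonucleoproteins, had 20.7 and 23.1 CPM in DEN_WT against 0.766 and 2.30 CPM in WT (log2 fold change 3.82, SE 0.95, adjusted p = 0.0307). Fbl, the RNA methyltransferase of the same particles, moved the other way, with 5.40 and 3.53 CPM in DEN_WT against 30.7 and 32.2 CPM in WT (log2 fold change -2.81, SE 0.57, adjusted p = 0.0127). Nop58 and Fbl each did not pass without any single one of the 4 libraries of DEN_WT and WT (highest adjusted p = 0.182 and 0.15), and Nop58 shares its locus with 4 small nucleolar RNA genes on its strand. In PR-SET7_LOBE against DEN_WT, 1 of the 20 was higher, again Fbl, at 37.2, 34.5, 12.6 and 19.5 CPM in PR-SET7_LOBE (log2 fold change 2.54, SE 0.52, adjusted p = 0.0104; 0.0708 and 0.182 without DEN_WT replicates 1 and 2). Over all tested genes, 4.82% were higher in that comparison and 6.26% lower. The median of the 20 targets was also taken in each library, as log2 CPM relative to each gene's mean over 8 libraries. It was -0.21, 0.41, 0.11 and 0.11 in PR-SET7_LOBE, 0.02 and -0.04 in DEN_WT and -0.13 and -0.06 in WT. Over all tested genes this median lay between -0.10 and 0.07. Myc was highest in WT replicate 2, followed by PR-SET7_LOBE replicate 2. Whether the targets follow Myc was not tested.

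The Jun family supplied nearly all AP-1 subunit mRNA on a per-kb scale, which was not corrected for GC content. Per kb of transcript, Jun, Junb and Jund together made up between 88.9% and 97.5% of the summed level of the 6 Fos and Jun genes in every library. Jund and Junb led in all 8, with Jund first in PR-SET7_LOBE replicates 2 and 4, DEN_WT replicate 2 and WT replicate 2 and Junb first in the other 4. The summed level was 279.9, 136, 62.4 and 54.4 CPM per kb in PR-SET7_LOBE, 87.0 and 90.7 CPM per kb in DEN_WT and 166 and 82.9 CPM per kb in WT. The PR-SET7_LOBE libraries thus spanned the whole range of the series.

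**Figure D3:**
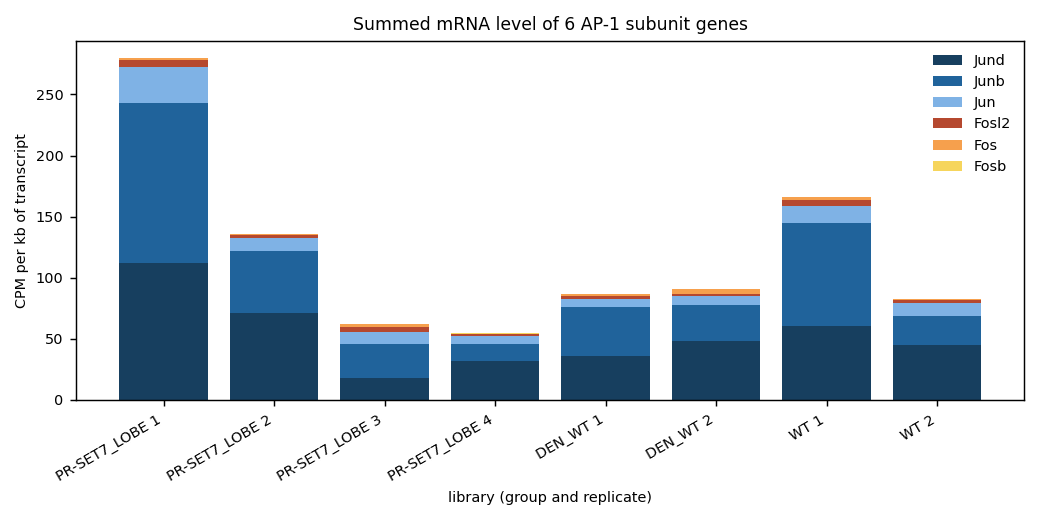
Summed level of the 6 AP-1 subunit genes in each library, in CPM per kb of transcript, stacked by gene. PR-SET7_LOBE replicate 1 reaches 279.9 and replicate 4 54.4 CPM per kb, and the Fos family genes form a thin layer in every bar.

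Jun, the founding member of its family and a partner of FOS proteins (ENSMUSG00000052684, mm9 chromosome 4, 94715725 to 94718913, minus strand), had 95.7, 33.6, 31.5 and 18.5 CPM in PR-SET7_LOBE, 20.5 and 23.3 CPM in DEN_WT and 45.1 and 34.0 CPM in WT. Both DEN_WT libraries lay below both WT libraries, and PR-SET7_LOBE covered the range of both. The log2 fold change was -0.85 in DEN_WT against WT (SE 0.65, adjusted p = 0.406), which passed only in the fit on these 2 groups alone (adjusted p = 0.0445), and 0.18 in PR-SET7_LOBE against WT (SE 0.56, adjusted p = 0.886). The antisense gene BC042782 overlaps Jun by 689 bases and had between 3 and 20 counts per library, against 203 to 1019 for Jun.

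Junb, a Jun protein that can restrain JUN (ENSMUSG00000052837, mm9 chromosome 8, 87500811 to 87502617, minus strand), had 237, 92.2, 49.7 and 25.6 CPM in PR-SET7_LOBE, 72.9 and 54.3 CPM in DEN_WT and 152 and 43.8 CPM in WT. Jund, the family member expressed in resting cells (ENSMUSG00000071076, mm9 chromosome 8, 73221638 to 73224515, plus strand), had 186, 119, 30.3 and 53.5 CPM in PR-SET7_LOBE, 59.9 and 80.1 CPM in DEN_WT and 101 and 74.3 CPM in WT. In both genes the 3 groups overlapped, and PR-SET7_LOBE replicate 1 was the highest library. The log2 fold changes in PR-SET7_LOBE against WT were 0.05 for Junb (SE 0.76, adjusted p = 0.984) and 0.15 for Jund (SE 0.61, adjusted p = 0.917), and in DEN_WT against WT they were -0.62 (SE 0.88, adjusted p = 0.667) and -0.33 (SE 0.70, adjusted p = 0.785).

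Directions within the Jun family depended on single libraries and on the correction for base composition. Without PR-SET7_LOBE replicate 1 the log2 fold changes against WT were -0.50, -0.81 and -0.37 for Jun, Junb and Jund (lowest adjusted p = 0.268). Junb was also at -0.51 in PR-SET7_LOBE against WT without WT replicate 2, and at 0.55 in DEN_WT against WT without WT replicate 1. Against DEN_WT, PR-SET7_LOBE without its replicate 1 gave -0.18 for Junb and -0.05 for Jund. The transcripts of Junb and Jund had 62.6% and 67.1% GC, above 99.0% and 99.8% of tested genes, whose median was 49.7%. After a correction for GC content the log2 fold change of Jund in DEN_WT against WT was 1.19 in place of -0.33 (adjusted p = 0.0641, and 0.0347 with a replicate block added), and that of Junb was 0.32 in place of -0.62 (adjusted p = 0.738). In PR-SET7_LOBE against DEN_WT the same correction gave -0.97 in place of 0.47 for Jund (adjusted p = 0.0667) and -0.27 in place of 0.67 for Junb (adjusted p = 0.737).

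The Fos family was scarce. Fos, the archetype of immediate early genes (ENSMUSG00000021250, mm9 chromosome 12, 86814840 to 86818223, plus strand), had 3.94, 2.10, 4.46 and 0.638 CPM in PR-SET7_LOBE, 4.43 and 7.42 CPM in DEN_WT and 4.40 and 2.49 CPM in WT. PR-SET7_LOBE replicate 4 was the lowest library, with 7 counts. The log2 fold change was 0.78 in DEN_WT against WT (95% interval -0.96 to 2.53, adjusted p = 0.537), and -0.31 in PR-SET7_LOBE against WT (95% interval -1.82 to 1.2, adjusted p = 0.835), which was 0.05 without PR-SET7_LOBE replicate 4 and 0.15 without WT replicate 1. Fos and Egr1, which share their upstream signals, thus differed in DEN_WT in the size of their fitted changes, a difference that was not tested.

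Fosb, a close relative of Fos (ENSMUSG00000003545, mm9 chromosome 7, 19888070 to 19895394, minus strand), had between 5 and 13 counts in every library, which is 0.67 to 1.18 CPM in PR-SET7_LOBE, 0.443 and 0.707 CPM in DEN_WT and 0.574 and 1.2 CPM in WT. At this depth no difference was detectable (adjusted p = 0.96 in PR-SET7_LOBE and 0.689 in DEN_WT, each against WT). Fosl2, which codes for the Fos protein FRA2 (ENSMUSG00000029135, mm9 chromosome 5, 32438845 to 32460204, plus strand), had 34.3, 14.8, 29.6 and 11.7 CPM in PR-SET7_LOBE, 13.8 and 10.6 CPM in DEN_WT and 31.1 and 12.6 CPM in WT. Its log2 fold change was 0.05 in PR-SET7_LOBE against WT (SE 0.52, adjusted p = 0.972) and -0.84 in DEN_WT against WT (SE 0.60, adjusted p = 0.372). Fosl1, which codes for FRA1, was below the filter, at 0 CPM in all but PR-SET7_LOBE replicates 1 and 3, which had 0.188 and 0.186 CPM.

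Ier3, an immediate early gene of NF-kappaB and ERK signalling that can protect cells from death (ENSMUSG00000003541, mm9 chromosome 17, 35958629 to 35959868, plus strand), had the widest spread within PR-SET7_LOBE. It had 14.7, 6.70, 3.71 and 1.18 CPM there, 3.36 and 4.86 CPM in DEN_WT and 4.40 and 2.40 CPM in WT. The highest PR-SET7_LOBE library exceeded the lowest 12.4 times, and the range took in all other libraries. The log2 fold change was 0.95 in PR-SET7_LOBE against WT (SE 0.81, adjusted p = 0.546) and 0.27 in DEN_WT against WT (SE 0.91, adjusted p = 0.867).

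Within PR-SET7_LOBE, replicate 1 was the highest of the 4 for 6 of the 10 genes (Fosl2, Jun, Junb, Jund, Egr1 and Ier3), against 31% of the 17282 tested genes with a single highest library. Fos and Atf3 were highest in replicate 3, Myc in replicate 2 and Fosb in replicate 4. Replicate 4 was the lowest for 8 of the 10 (all but Fosb and Jund), against 20% of the 16788 tested genes with a single lowest library. The median ratio of the highest to the lowest PR-SET7_LOBE library was 5.67 over the 10 genes, with a range of 1.77 to 12.4, against 2.86 over the 15796 tested genes with counts in all 4. In DEN_WT and WT the median ratios were 1.38 and 1.80 over the 10 genes, against 1.21 and 1.42 over tested genes. Other measures also differed between these libraries. The correlation of gene levels with GC content was 0.607, -0.0453, -0.289 and -0.231 in PR-SET7_LOBE replicates 1 to 4, and the 8 macrophage markers summed to 737, 587, 736 and 410.2 CPM in the same libraries. In WT, replicate 1 had more than replicate 2 of every member but Fosb (0.574 against 1.2 CPM) and Myc (14.0 against 109.6 CPM). The macrophage markers summed to 1129 CPM in WT replicate 1 against 339.7 CPM in WT replicate 2. The part of GC content and of macrophages in these levels was not tested.

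**Figure D4:**
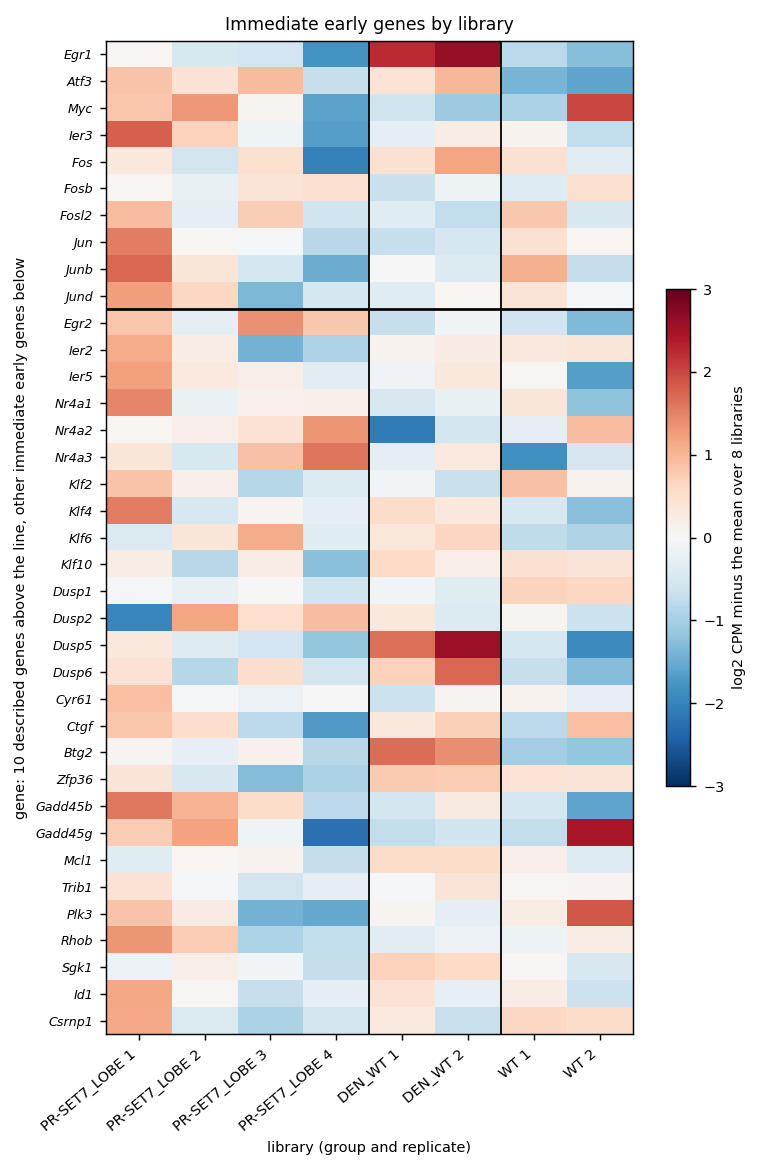
log2 CPM of each gene minus its mean over the 8 libraries, for the 10 genes above the line and 27 other immediate early genes below it; columns are libraries, grouped by vertical lines. Red cells stand for libraries above the gene's mean: Egr1, Dusp5, Dusp6 and Btg2 are red in both DEN_WT libraries, and Myc and Gadd45g share their high cell in WT replicate 2.

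Among other immediate early genes the share that passed in DEN_WT was near that of all genes. Of 27 tested, 3 rose and 0 fell in DEN_WT against WT, where 9.72% of all tested genes changed, with a list median of 0.28 against 0.06. Dusp5, a nuclear phosphatase that switches off ERK, had 12.8 and 24.8 CPM in DEN_WT against 2.68 and 0.922 CPM in WT (log2 fold change 3.38, SE 0.73, adjusted p = 0.0168). Dusp6, its cytoplasmic counterpart, had 90.0 and 184 CPM in DEN_WT against 34.3 and 22.3 CPM in WT (log2 fold change 2.28, SE 0.59, adjusted p = 0.0364). Btg2, a p53-induced inhibitor of proliferation, had 132 and 108 CPM in DEN_WT against 19.7 and 18.3 CPM in WT (log2 fold change 2.66, SE 0.45, adjusted p = 0.00539). For these 3 genes both DEN_WT libraries lay above both WT libraries. Dusp5 did not pass without DEN_WT replicate 2 (adjusted p = 0.146) or WT replicate 2 (0.109), Btg2 without WT replicate 1 (0.0573) or 2 (0.0522), and Dusp6 without any single one of these 4 libraries (0.0591 to 0.264). A 547-base stretch of Dusp5 is identical to the transcript AC137853.2, so its counts are uncertain.

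In PR-SET7_LOBE against WT, 0 of the 27 passed edgeR's test and 5 had an unadjusted p under 0.05, with a list median of 0.29 against 0.11. DESeq2 called 0 of the 27 there, beside 927 of all 17362 tested genes. In PR-SET7_LOBE against DEN_WT, 2 of the 27 were lower and 0 higher, beside 6.26% and 4.82% of all tested genes. Dusp5 had 4.98, 2.97, 2.6 and 1.64 CPM in PR-SET7_LOBE (log2 fold change against DEN_WT -2.62, SE 0.55, adjusted p = 0.0111; 0.216 without DEN_WT replicate 2). Btg2 had 43.7, 34.4, 45.2 and 23.0 CPM in PR-SET7_LOBE (log2 fold change against DEN_WT -1.72, SE 0.35, adjusted p = 0.00966; 0.116 and 0.0723 without DEN_WT replicates 1 and 2).

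The genes whose pattern over the 8 libraries was most like that of each member were found by the root mean square difference of centred log2 CPM among 11067 genes. For Egr1 the nearest was Dusp5, at 0.39. The next was Crip1, at 0.50. For Myc the nearest was Gadd45g, an immediate early gene of the damage response, at 0.34, followed by Ndufab1 at 0.57. Gadd45g had 26.0, 35.6, 13.9 and 3.10 CPM in PR-SET7_LOBE, 9.03 and 10.1 CPM in DEN_WT and 9.09 and 83.8 CPM in WT, and so shared with Myc its single high WT library. Nearest to Atf3 was Wnk4 (0.29), to Ier3 Nfkb2 (0.31), to Fos Csda (0.33), to Fosl2 Tgm2 (0.17), to Jun Cabin1 (0.16), to Junb Rap1gap (0.23), to Jund Lrp10 (0.21) and to Fosb Wdr89 (0.15). Fosb had only 5 to 13 counts per library, so its small distance says little. The nearest distance of genes outside the members was not taken for reference. Among the members themselves the closest pairs were Fosl2 with Jun (0.46) and Junb with Ier3 (0.47), and the most distant was Egr1 with Myc (2.15).

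Levels on the per-kb scale can be set in order between genes, but the scale was not corrected for GC content. Transcripts of Junb and Jund had 62.6% and 67.1% GC, against a median of 49.7% over tested genes. In WT the order of the group means was Junb (54.1 CPM per kb), Jund (52.7), Myc (26.4), Jun (12.4), Egr1 (3.59), Fosl2 (3.35), Ier3 (3.01), Fos (1.63), Atf3 (0.995) and Fosb (0.234). The WT libraries of neighbours in this order overlapped for Junb and Jund, Jund and Myc, Myc and Jun, Egr1 and Fosl2, and Fosl2 and Ier3, and not for the others. In DEN_WT Jund (42.0), Egr1 (40.4) and Junb (35.2) came first and Atf3 (4.97) stood above Ier3 (3.64), Fos (2.81) and Fosl2 (1.87), while in PR-SET7_LOBE the order opened with Jund (58.3), Junb (55.9), Myc (16.4) and Jun (14.1).

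Around the AP-1 genes, 1 of 10 tested genes of the remaining AP-1 and ATF family changed in DEN_WT against WT, near the 9.72% of all tested genes. There 3 (Nfe2l2, Atf2 and Mafg) had an unadjusted p under 0.05. DESeq2 called the same 3, beside 3144 of all 17362 tested genes. Nfe2l2, which codes for the oxidant response factor NRF2, had 97.7 and 189 CPM in DEN_WT against 36.9 and 41.8 CPM in WT (log2 fold change 1.86, SE 0.46, adjusted p = 0.031), and did not pass without any single one of these 4 libraries (0.0591 to 0.301). The list median was -0.75 in DEN_WT against WT and 0.23 in PR-SET7_LOBE against WT. In PR-SET7_LOBE against WT and against DEN_WT, 0 of the 10 passed edgeR's test, and 0 and 2 had an unadjusted p under 0.05. DESeq2 called 0 and 1 of the 10, beside 927 and 2842 of all 17362 tested genes.

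Of 16 kinases and factors upstream, such as the MAP kinases of the JNK, p38 and ERK branches and serum response factor, 0 passed edgeR's test in PR-SET7_LOBE against WT, DEN_WT against WT or PR-SET7_LOBE against DEN_WT. An unadjusted p under 0.05 was found for 1, 4 and 1 of them, and DESeq2 called 0, 1 and 1. Over all 17362 tested genes, edgeR called 0.248%, 9.72% and 11.1%, and DESeq2 called 927, 3144 and 2842 genes. Their median log2 fold change was -0.06 in PR-SET7_LOBE and 0.29 in DEN_WT, each against WT.

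Of 15 tested AP-1 target genes, 1 rose in PR-SET7_LOBE against WT and 2 rose in DEN_WT against WT, and 0 fell in either, where 0.248% and 9.72% of all tested genes changed. Those with an unadjusted p under 0.05 numbered 8 and 5 in these comparisons, with no share over all tested genes taken. DESeq2 called 7 and 5 of the 15, beside 927 and 3144 of all 17362 tested genes. The list medians were 2.03 and 1.26, beside 0.11 and 0.06 over all tested genes. Cdkn1a, the cell cycle inhibitor p21 and also a p53 target, had 56.1, 38.3, 21.9 and 83.1 CPM in PR-SET7_LOBE, 35.5 and 59.8 CPM in DEN_WT and 1.15 and 2.4 CPM in WT. It rose in both (log2 fold change 4.80, SE 0.69, adjusted p = 0.0248 in PR-SET7_LOBE; 4.74, SE 0.72, adjusted p = 0.00327 in DEN_WT). In PR-SET7_LOBE it did not pass without PR-SET7_LOBE replicate 2 (adjusted p = 0.0578) or WT replicates 1 (0.17) or 2 (0.237), and 262 of its bases are identical to the transcript AC167363.2. Mmp12, a metalloelastase of macrophages, had 15.5 and 18.5 CPM in DEN_WT against 0.766 and 0.553 CPM in WT (log2 fold change 4.66, SE 0.85, adjusted p = 0.00823; 0.0616 and 0.0632 without WT replicates 1 and 2). It overlaps Mmp1b on the opposite strand. The macrophage markers, led by Cd5l, summed to 257 to 365 CPM in DEN_WT against 339.7 to 1129 CPM in WT, and 0 of the 8 passed the test. Their mean CPM was lower in DEN_WT than in WT for Cd5l, Clec4f, Csf1r and Timd4. It was 11.7 in both groups for Cd68, and higher in DEN_WT for Emr1, Marco and Vsig4. The part of macrophages in the level of Mmp12 was not tested. In PR-SET7_LOBE against DEN_WT 0 of the 15 passed edgeR's test and 1 (Mmp9) had an unadjusted p under 0.05. DESeq2 called 1, Mmp9, beside 2842 of all 17362 tested genes.

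**Figure D5:**
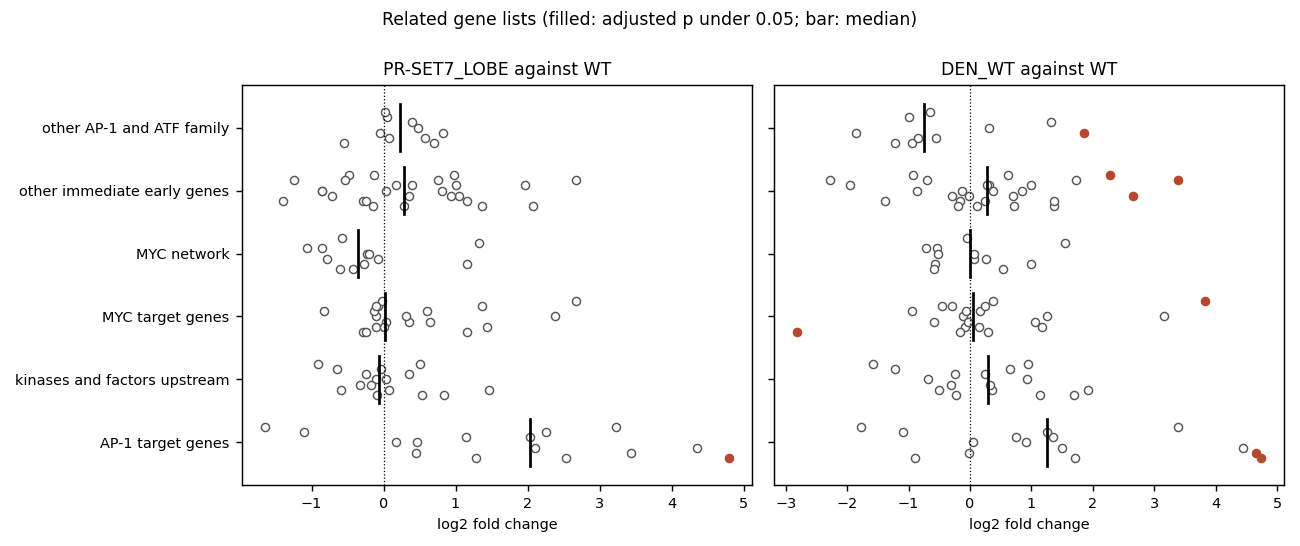
Fitted log2 fold change of each tested gene of 6 related lists in PR-SET7_LOBE against WT (left) and DEN_WT against WT (right), with filled points at an adjusted p under 0.05 and a bar at the list's median. Filled points number 1 on the left and 8 on the right, and the AP-1 target genes have the highest medians, 2.03 and 1.26.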

How the data were processed

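The authors deposited raw counts for each Ensembl gene, both as 1 table of the series and sample by sample, with the same values. Per the labels' protocols, messenger RNA was made into Ion Torrent libraries and read on an Ion Proton. Per the submitters' processing notes, the tools included DESeq, Cufflinks and TopHat2 2.0.9 and the build was mm9. The counting tool, annotation and strand setting were not given in the sources used here. Reads of genes that overlap on opposite strands therefore cannot be told apart.

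Counts were filtered (filterByExpr by group), scaled with TMM and tested with edgeR 4.0.16 in R 4.3.3 (robust quasi-likelihood, all 8 libraries in 1 fit, group as the only term). CPM values use the TMM-scaled library size. The common biological coefficient of variation was 0.479. Replicates all differed by more than sampling noise (lowest chi-square per degree of freedom 27.4). Standard errors and 95% intervals come from the quasi-likelihood F. Transcript length and GC content are those of the longest GENCODE M21 transcript, found for 96.6% of tested genes. A blastn 2.17.0 search found no transcript of another gene with 95% identity over 200 bases for the 10 members, apart from those overlapping Jun and Jund.

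The members, 6 gene lists and 9 marker lists were chosen with earlier results of these data known. Of each list, genes that passed are named, with up to 3 of smallest adjusted p, and some single genes (Max, Fosl1) were named after their values were seen, as were the leading markers left out of marker sums. For each member the nearest patterns were sought among genes with a mean log2 CPM of 1 or more. Alternatives were RLE and upper-quartile scaling, DESeq2 1.42.0, no filter, a filter of 5 CPM in 2 libraries, fits restricted to the compared groups, a replicate block, a GC correction, and leaving out each library; for list genes they were added after seeing the data. Where 1 library of a group remained, it was assumed to vary like the others. The steps were tested on simulated counts. The reads carry no molecular identifiers, so limits from counts cover counting error only.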

Additional observations from a re-analysis of the deposited data

How the results depend on the processing

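Over 17 alternatives, 460 of 500 refitted member differences kept direction and call. Only Egr1 and Atf3 were called in the main fit, so for the other members a kept call says little. In 16 of the 30 member differences the sign turned in at least 1 refit. The cause of the changes below was not tested. Counts of all genes called moved from 43 in PR-SET7_LOBE against WT to 66 with upper-quartile scaling (47 higher and 19 lower, 71.2% higher in place of 60.5%), 927 with DESeq2, 419 with no filter, 19 with only these 2 groups, 243 with the replicate block, 158 with the GC correction and 261 with both, and between 1 and 2392 with 1 library left out. In DEN_WT against WT they moved from 1688 to 3144 with DESeq2, 5643 with only these 2 groups, 3137 with the replicate block and 2921 with block and GC correction, and between 329 and 4549 with 1 library left out; in PR-SET7_LOBE against DEN_WT from 1924 to between 454 and 2662 with 1 library left out. Members called in PR-SET7_LOBE against WT numbered 1 with DESeq2 and 0 to 1 with 1 library left out, and in DEN_WT against WT 3 with the 2 groups alone or with block and GC correction and 0 to 2 with 1 library left out.

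Signs turned in 31 member refits. With the replicate block, in PR-SET7_LOBE against WT, Fosb was at -0.15 and Myc at 0.22, and with GC correction added at -0.32 and 0.14. With block and GC correction Junb was at 0.42 and Jund at 1.16 in DEN_WT against WT, and Fosb at -0.07 and Jund at -0.80 in PR-SET7_LOBE against DEN_WT; with the GC correction alone Junb was at 0.32 and -0.27 and Jund at 1.19 and -0.97 in these comparisons. With 1 library left out, log2 fold changes in PR-SET7_LOBE against WT ranged from -0.57 to 0.15 for Fos, -0.34 to 0.79 for Fosb, -0.38 to 0.83 for Fosl2, -0.50 to 0.45 for Jun, -0.81 to 1.2 for Junb, -0.37 to 0.51 for Jund and -1.52 to 1.53 for Myc. In DEN_WT against WT they ranged from -1.03 to 0.10 for Fosb, -1.16 to 0.55 for Junb and -2.82 to 0.24 for Myc, and in PR-SET7_LOBE against DEN_WT from -0.18 to 1.01 for Junb, -0.05 to 0.70 for Jund, -0.52 to 0.07 for Atf3 and -0.09 to 1.05 for Ier3.

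The replicate numbers are only numbers in the labels: deviations of same-numbered samples correlated at 0.165 and 0.106 between PR-SET7_LOBE and WT, 0.0599 between DEN_WT and WT and -0.00874 and 0.02 between PR-SET7_LOBE and DEN_WT. Upper-quartile scaling moved the median of all genes in PR-SET7_LOBE against WT to 0.291, from 0.106. Fosb had 5 to 13 counts and Fos 7 to 84 per library, so their values carry more counting error than those of the deeper members.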
